A study of Homo sapiens with 8 samples.

Results

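A set of 10 genes that are switched on by Wnt signalling and then act against it (AXIN2, NKD1, NKD2, DKK1, DKK4, NOTUM, RNF43, ZNRF3, APCDD1 and SP5) was followed in SW480 cells after silencing of TCF7L2. The genes were taken by symbol from the deposited expression table. All 10 of 10 were among its 18656 gene symbols, and all 10 were among the 11894 genes that passed the filter on low values. SW480 is an established human colorectal cancer line, and TCF7L2 encodes a DNA-binding partner of beta-catenin. The table held 8 RNA-seq libraries in 4 groups of 2. The control group had received a negative-control siRNA and was labelled 0 h. The other 3 groups had received siRNA against TCF7L2 for 24, 48 or 72 h, delivered with a lipid reagent. A negative control was labelled at 0 h only, so in comparisons with 0 h the siRNA and the hours since transfection cannot be told apart. No label says whether replicates were separate cultures, and the p-values therefore speak to the spread of these libraries alone, and that spread may be technical.

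In the Wnt pathway a secreted ligand binds a Frizzled receptor with LRP5 or LRP6, Dishevelled is recruited, and the destruction complex that degrades beta-catenin is held back. Beta-catenin then binds TCF/LEF factors and activates target genes, several of which encode inhibitors of the same pathway. In most colorectal cancers, SW480 among them, the scaffold protein APC is truncated, so beta-catenin stays high without ligand and these feedback genes are strongly transcribed.

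Levels are given as scaled TPM. TPM is the share of transcripts after correction for gene length, so levels of different genes can be compared. Each library was divided by its median ratio to the average profile of all libraries. The factors were 0.983 to 1.06 in 7 libraries and 0.798 in the second 72 h library, whose deposited TPM summed to 352456 over the listed genes against 448107 to 485602 in the others. Changes are differences of log2(scaled TPM + 1) ± SE from limma, with Benjamini-Hochberg adjusted p-values over all 11894 genes and a threshold of 0.05. TCF7L2 itself had 6.50 and 7.02 scaled TPM at 0 h, 5.84 and 5.14 after 24 h, 4.70 and 3.85 after 48 h, and 3.96 and 4.42 after 72 h. The siRNA libraries all lay below both controls. The change of TCF7L2 was -0.26 ± 0.11 after 24 h (adjusted p = 0.289), -0.56 ± 0.11 after 48 h (adjusted p = 0.00737) and -0.58 ± 0.11 after 72 h (adjusted p = 0.00207). Of 16 markers of colorectal epithelium, 13 to 16 had a TPM of 1 or more in each library, with EPCAM at 428 to 599 TPM and VIL1 at 129 to 193. Others of that list were low, with CDX1 at 0.66 to 1.68 TPM, KRT20 at 0.52 to 2.98, LGALS4 at 0.78 to 2.73, GPA33 at 0.52 to 4.79 and CDX2 at 4.42 to 9.56. Of 17 markers of other cell types, 3 or 4 had a TPM of 1 or more. Their summed level was 7.96 and 11.7 scaled TPM at 0 h and 32.4 and 36.6 after 72 h, with CD68, a lysosomal protein gene used as a macrophage marker, at 22.7 ± 2.06 of the 72 h sum. Only 4 of the 17 were kept for the test. Of these 3 rose and 1 fell after 72 h (median 1.26), against 26.2 and 25.7% of all genes (median 0.01). CD68 rose from 2.69 ± 0.950 at 0 h (adjusted p = 1.62e-05). The collagen gene COL3A1 went from 0.0141 ± 0.00659 to 2.46 ± 0.144 scaled TPM (adjusted p = 3.07e-06) and COL1A1 from 1.49 ± 0.496 to 3.19 ± 0.838 (adjusted p = 0.0134), while SYP, which encodes a synaptic vesicle protein, fell by 0.51 ± 0.11 (adjusted p = 0.00424). The leukocyte marker PTPRC stayed at or below 0.63 TPM, and CD3E, ITGAM, PECAM1 and ACTC1 were at 0 in at least 1 library. The part of these markers in the results below was not tested.

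For 5 of the 10 genes a promoter window was found in the RefSeq table (GRCh38.p14), and those of SP5 and DKK1 are shown because they hold TCF/LEF-type letters while the genes moved in opposite directions. SP5 encodes a repressor of the SP zinc-finger family, and DKK1 a secreted antagonist of LRP5 and LRP6. The sequences run 5′ to 3′ over the 250 bases before the annotated start, on the plus strand, and capitals mark the motif CTTTGAA, besides it CTTTGAT, further CTTTGTA and lastly CTTTGTT, each on either strand.
SP5, chr2:170715087-170715336: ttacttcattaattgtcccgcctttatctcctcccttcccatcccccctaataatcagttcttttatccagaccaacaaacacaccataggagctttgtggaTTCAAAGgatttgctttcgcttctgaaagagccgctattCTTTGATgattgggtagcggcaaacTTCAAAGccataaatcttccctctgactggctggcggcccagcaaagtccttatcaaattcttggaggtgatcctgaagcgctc
DKK1, chr10:52314031-52314280: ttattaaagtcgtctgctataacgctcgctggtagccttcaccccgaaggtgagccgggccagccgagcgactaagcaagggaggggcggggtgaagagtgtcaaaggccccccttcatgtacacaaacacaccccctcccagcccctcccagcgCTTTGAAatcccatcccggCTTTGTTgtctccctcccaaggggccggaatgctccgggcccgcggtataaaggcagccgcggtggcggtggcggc
The SP5 window held 3 matches, which do not overlap each other, at 148, 109 and 84 bases before the start. The DKK1 window held 2, at 95 and 76 bases. Among all 35116 windows, 12% held at least 1 match of the 4 motifs on either strand, 1.21% at least 2 and 0.122% at least 3. The windows of NKD2, APCDD1 and RNF43 (2 windows) held 0 matches, which says only that these letters are not in these bases. A match is a run of letters and was not tested for binding.

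At 0 h most of the feedback genes were among the more abundant transcripts of the line. NOTUM, which encodes a secreted enzyme that removes the lipid from Wnt ligands, was the highest with a mean level of 345 ± 7.62 scaled TPM (SD, n = 2), above 98.7% of the genes kept. APCDD1 (247 ± 10.3), AXIN2 (204 ± 5.27) and NKD1 (168 ± 2.93) followed. RNF43 (57.1 ± 1.56), NKD2 (53.1 ± 1.42), SP5 (51.5 ± 1.73) and DKK4 (42.5 ± 0.0902) came next, and the libraries of NKD2 and SP5 overlapped. ZNRF3 (28.7 ± 0.825) and DKK1 (16.1 ± 2.08) were the lowest, DKK1 above 58.3% of genes. By 72 h the order had changed. APCDD1 was first at 363 ± 4.50, NOTUM came at 169.8 ± 0.0934 behind AXIN2 at 175 ± 2.74, and NKD2 was last at 25.5 ± 0.648. ZNRF3 (42.7 ± 2.66) and DKK1 (42.0 ± 1.78) overlapped after 72 h. The sum over the 10 genes was 1230 and 1196 scaled TPM at 0 h and 1138 and 1162 after 72 h. NOTUM made up 28.5 and 28.4% of that sum at 0 h and 14.9 and 14.6% after 72 h, and APCDD1 20.7 and 20.0% at 0 h and 31.6 and 31.5% after 72 h.

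**Figure D1:**
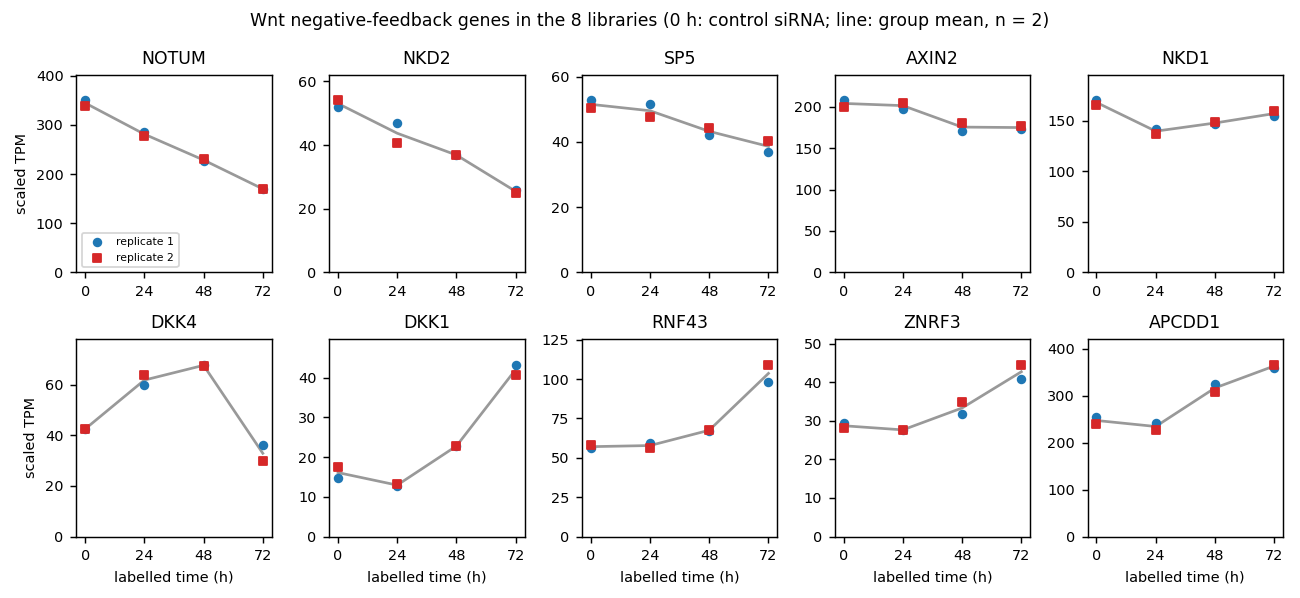
Scaled TPM of each feedback gene (vertical axes from 0, a different scale per gene) against labelled time in hours, with 1 point per library and a line through the group means. NOTUM runs from 345 at 0 h to 169.8 after 72 h, DKK4 is highest after 48 h with 67.7, and DKK1, RNF43, ZNRF3 and APCDD1 are highest after 72 h.

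Against the control, the feedback genes did not move as a block: 5 fell and 4 rose after 72 h, while 1 did not pass the test. The median change of the 10 was -0.16, against 0.01 over all genes. Of all genes tested, 26.2% were called higher and 25.7% lower after 72 h. At 48 h 4 were called higher and 5 lower, against 12.1 and 11.3% of all genes. At 24 h 1 was called higher and 2 lower, against 0.647 and 0.437% of all genes. The 3 comparisons share the same 2 control libraries. On the TPM as deposited, where the median of all genes was -0.19 after 72 h, 2 feedback genes were called higher and 5 lower after 72 h, against 10.5 and 31.2% of all genes. At 48 h as deposited 2 were higher and 2 lower, against 4.61 and 3.14% of all genes.

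The secreted deacylase NOTUM fell at every time. It had 349.9 and 339 scaled TPM at 0 h, 285 and 277 after 24 h, 227 and 230 after 48 h, and 169.7 and 169.8 after 72 h. Each group lay below the one before it with no overlap. The change was -0.29 ± 0.04 after 24 h (adjusted p = 0.0155), -0.59 ± 0.04 after 48 h (adjusted p = 3.64e-05) and -1.02 ± 0.04 after 72 h (adjusted p = 1.72e-07) and the mean level fell by 50.7%. Only 1.31% of all genes had a lower change after 72 h.

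NKD1 and NKD2 encode related proteins that bind Dishevelled and oppose its signal. NKD2 had 52.1 and 54.1 scaled TPM at 0 h, 46.8 and 40.7 after 24 h, 36.9 and 36.9 after 48 h, and 25.9 and 25.0 after 72 h. It decreased from group to group without overlap. The change was -0.28 ± 0.07 after 24 h (adjusted p = 0.092), -0.51 ± 0.07 after 48 h (adjusted p = 0.00123) and -1.03 ± 0.07 after 72 h (adjusted p = 3.42e-06), beside -1.02 for NOTUM. NKD1 had 170.1 and 166 scaled TPM at 0 h, 142 and 137 after 24 h, 147 and 149 after 48 h, and 155 and 159 after 72 h. It was lowest after 24 h and all 6 siRNA libraries lay below both controls. NKD1 fell by 0.27 ± 0.04 after 24 h (adjusted p = 0.0282) and by 0.18 ± 0.04 after 48 h (adjusted p = 0.0144), and the value after 72 h was -0.10 ± 0.04 (adjusted p = 0.0859). With library sums made equal, the 72 h value was -0.12 (adjusted p = 0.0408). As deposited NKD1 was at -0.36 after 24 h (adjusted p = 0.583), -0.19 after 48 h (adjusted p = 0.582) and -0.32 after 72 h (adjusted p = 0.102), none of them called and with the 72 h value near that of 24 h. Within a library, where scaling cancels, NKD1 was 3.27 and 3.07 times NKD2 at 0 h and 5.96 and 6.38 times after 72 h.

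AXIN2, a scaffold of the destruction complex and a much used readout of Wnt activity, was lower from 48 h on after scaling. It had 208 and 200.5 scaled TPM at 0 h, 198 and 205 after 24 h, 171 and 180.3 after 48 h, and 173 and 177 after 72 h. The 24 h libraries overlapped the controls, and those of 48 and 72 h lay below them and overlapped each other. The change was -0.02 ± 0.05 after 24 h (adjusted p = 0.884), -0.22 ± 0.05 after 48 h (adjusted p = 0.00967) and -0.22 ± 0.05 after 72 h (adjusted p = 0.00308). At 72 h 27.2% of all genes had a lower change. As deposited the 72 h change of AXIN2 was -0.45 ± 0.17 (adjusted p = 0.0205), further from 0 than the scaled value, while the 48 h change was -0.23 and not called (adjusted p = 0.498).

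SP5 had 52.7 and 50.3 scaled TPM at 0 h, 51.6 and 47.5 after 24 h, 42.1 and 44.3 after 48 h, and 37.0 and 40.2 after 72 h. It overlapped the controls after 24 h and lay below them later. SP5 fell by 0.25 ± 0.07 after 48 h (adjusted p = 0.0238) and by 0.41 ± 0.07 after 72 h (adjusted p = 0.000672). Its 24 h value was -0.06 ± 0.07 (adjusted p = 0.724). As deposited the 48 h change of SP5 was -0.26 ± 0.16 and not called (adjusted p = 0.394), while that after 72 h was -0.63 ± 0.16 (adjusted p = 0.000515).

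**Figure D2:**
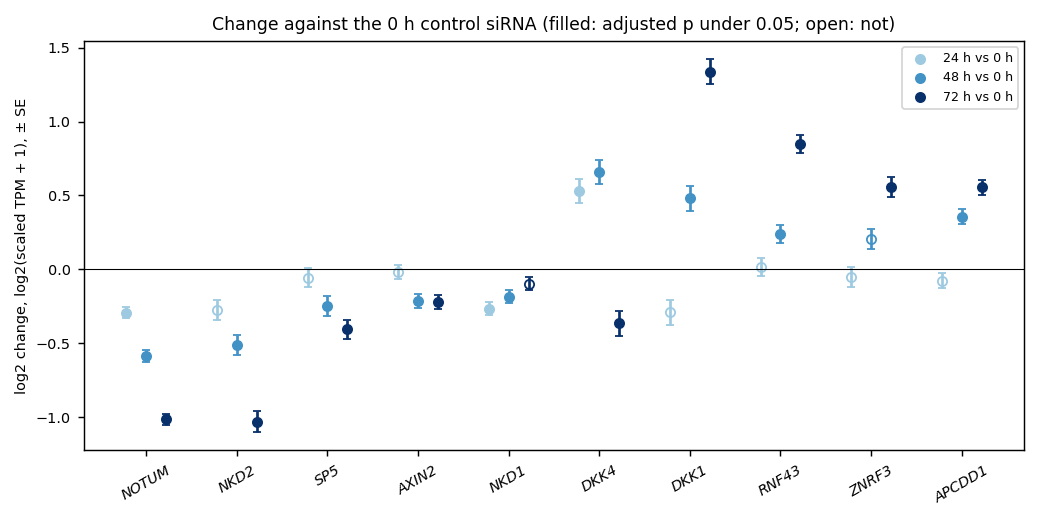
Change of each feedback gene against 0 h (vertical axis, log2(scaled TPM + 1), ± SE) at 24, 48 and 72 h, with filled points for an adjusted p under 0.05. NOTUM and NKD2 reach -1.02 and -1.03 after 72 h, DKK1 reaches 1.34, and DKK4 goes from 0.66 after 48 h to -0.37 after 72 h.

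The Dickkopf genes DKK1 and DKK4 both encode secreted antagonists of LRP5 and LRP6, and they changed in opposite directions after 72 h. DKK1 had 14.6 and 17.6 scaled TPM at 0 h, 12.7 and 13.2 after 24 h, 22.7 and 22.9 after 48 h, and 43.3 and 40.8 after 72 h. Both 24 h libraries lay below the controls and all later ones above. The change of DKK1 was -0.29 ± 0.08 after 24 h (adjusted p = 0.128), 0.48 ± 0.08 after 48 h (adjusted p = 0.00395) and 1.34 ± 0.08 after 72 h (adjusted p = 2.36e-06). Its 72 h value was above that of 98.5% of all genes. DKK4 had 42.5 and 42.6 scaled TPM at 0 h, 59.8 and 64.0 after 24 h, 68.0 and 67.4 after 48 h, and 36.1 and 29.7 after 72 h. It was above the controls after 24 and 48 h and below them after 72 h, without overlap at any time. DKK4 rose by 0.53 ± 0.08 after 24 h (adjusted p = 0.0217) and 0.66 ± 0.08 after 48 h (adjusted p = 0.000818), and was lower by 72 h, with a change of -0.37 ± 0.08 (adjusted p = 0.00451). Without the second 72 h library that change was -0.23 (adjusted p = 0.0163). The ratio of DKK1 to DKK4 within a library was 0.344 and 0.412 at 0 h, 0.212 and 0.207 after 24 h, 0.333 and 0.339 after 48 h, and 1.20 and 1.37 after 72 h. DKK1 thus passed DKK4 after 72 h only, in both libraries.

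RNF43 and ZNRF3 encode related membrane ubiquitin ligases that remove Frizzled receptors from the cell surface. RNF43 had 56.0 and 58.2 scaled TPM at 0 h, 59.2 and 56.4 after 24 h, 67.2 and 67.9 after 48 h, and 98.0 and 109 after 72 h. The 24 h libraries overlapped the controls and the later ones lay above. RNF43 rose by 0.24 ± 0.06 after 48 h (adjusted p = 0.0203) and by 0.85 ± 0.06 after 72 h (adjusted p = 4.94e-06). Its value after 24 h was 0.02 ± 0.06 (adjusted p = 0.922), and -0.08 as deposited. The 48 h change of RNF43 was not called as deposited (0.23, adjusted p = 0.474) or with library sums made equal (0.17, adjusted p = 0.0832). As deposited its 72 h change was 0.62 ± 0.16 (adjusted p = 0.000621). ZNRF3 had 29.3 and 28.2 scaled TPM at 0 h, 27.68 and 27.65 after 24 h, 31.7 and 35.0 after 48 h, and 40.9 and 44.6 after 72 h. It too was highest after 72 h, with no overlap between 0 h and any siRNA time. ZNRF3 rose by 0.56 ± 0.07 after 72 h (adjusted p = 0.000132), and its values were 0.21 ± 0.07 after 48 h (adjusted p = 0.0555) and -0.05 ± 0.07 after 24 h (adjusted p = 0.754). As deposited the 72 h change of ZNRF3 was 0.34 ± 0.16 and was not called (adjusted p = 0.0784). At 48 h its call was gained when either 72 h library was left out (adjusted p = 0.0373 in both cases), and the change of ZNRF3 was 0.14 (adjusted p = 0.3) without the second 48 h library. RNF43 was 1.91 and 2.07 times ZNRF3 at 0 h and 2.40 and 2.45 times after 72 h.

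APCDD1 encodes a membrane glycoprotein that binds Wnt ligands and LRP5. It had 254 and 239.8 scaled TPM at 0 h, 241 and 227 after 24 h, 325 and 308 after 48 h, and 359.8 and 366 after 72 h. The 24 h libraries overlapped the controls and the later ones lay above. APCDD1 rose by 0.35 ± 0.05 after 48 h (adjusted p = 0.00151) and by 0.55 ± 0.05 after 72 h (adjusted p = 2.16e-05), and the 24 h value was -0.08 ± 0.05 (adjusted p = 0.497). As deposited the changes of APCDD1 were 0.35 ± 0.17 after 48 h (adjusted p = 0.226) and 0.33 ± 0.17 after 72 h (adjusted p = 0.104), neither of them called. The ratio of APCDD1 to NOTUM, free of scaling, went from 0.727 and 0.707 at 0 h to 0.846 and 0.820 after 24 h, 1.43 and 1.34 after 48 h, and 2.12 and 2.16 after 72 h.

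**Figure D3:**
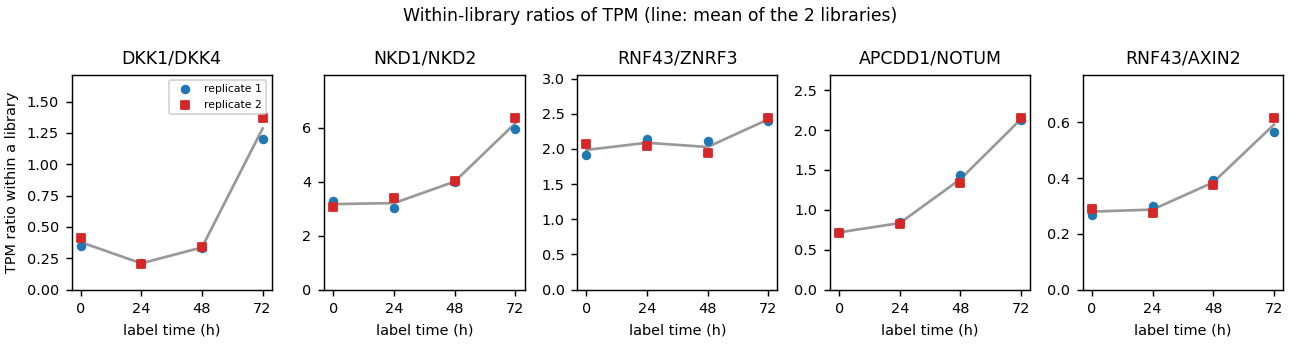
Ratio of TPM between pairs of feedback genes within each library (vertical axes from 0) against labelled time in hours, with 1 point per library and a line through the means. The ratio of DKK1 to DKK4 is at most 0.412 up to 48 h and is 1.20 and 1.37 after 72 h, and that of RNF43 to AXIN2 goes from 0.269 and 0.290 to 0.566 and 0.617.

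How much a call rested on single libraries differed by time. At 72 h no call of a feedback gene was lost or gained whichever library was left out. By number, most 72 h calls among all genes were kept as well, so this was not particular to the feedback genes. At 24 h all 3 calls were lost when either 0 h or either 24 h library was left out. Without the first or second 0 h library the adjusted p of NOTUM was 0.152 and 0.114, of NKD1 0.206 and 0.16, and of DKK4 0.152 and 0.156. Without the first or second 24 h library it was 0.0872 and 0.118 for NOTUM, 0.114 and 0.177 for NKD1, and 0.0976 and 0.165 for DKK4. Without either 48 h library NKD1 (0.0603 and 0.0622) and DKK4 (0.0566 and 0.0561) were lost too. As deposited, limma called 0 feedback genes after 24 h, against 0.210% of all genes higher and 0.252% lower, with 5 feedback genes at an unadjusted p under 0.05. How many of all genes passed that unadjusted cutoff is not given here, so the 5 cannot be set against them. At 48 h the calls of NKD1, RNF43 and SP5 ended when either 0 h library was dropped, first or second (NKD1 0.104 and 0.0571, RNF43 0.123 and 0.0608, SP5 0.139 and 0.0649). They ended as well when either 48 h library was dropped, first or second (NKD1 0.0826 and 0.065, RNF43 0.0807 and 0.101, SP5 0.128 and 0.0625). That of AXIN2 was lost without the first 0 h (0.0812) or first 48 h library (0.0786). Without a 0 h or a 24 h library, nearly all 24 h calls among all genes were lost as well. That loss was thus not particular to the feedback genes. In each such fit a lone library is assumed to vary like the other groups.

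Among cells that had all received the TCF7L2 siRNA, 72 h was compared with 24 h. TCF7L2 itself was lower after 72 h (-0.32 ± 0.11, limma adjusted p = 0.0392), so its level and the hours since transfection cannot be told apart here either. In this comparison 5 feedback genes were higher and 5 lower, against 25.4 and 24.8% of all genes, and the libraries of all 10 were separate, as were those of 74.7% of all genes. DKK1 was higher after 72 h by 1.63 ± 0.08 (adjusted p = 8.55e-07), RNF43 by 0.83 ± 0.06, APCDD1 by 0.63 ± 0.05, ZNRF3 by 0.61 ± 0.07 and NKD1 by 0.17 ± 0.04. The fall of DKK4 was -0.90 ± 0.08 (adjusted p = 2.56e-05). The other falls were -0.75 ± 0.07 in NKD2, -0.72 ± 0.04 in NOTUM, -0.35 ± 0.07 in SP5 and -0.20 ± 0.05 in AXIN2. As deposited NKD1 (0.04, adjusted p = 0.874) and AXIN2 (-0.33, adjusted p = 0.112) were not called, and after quantile normalization AXIN2 was not (-0.12, adjusted p = 0.0612). NKD1 was not called either when the second 24 h library was left out (adjusted p = 0.0673).

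The last step, 72 h against 48 h, was added after the values had been seen. Here 4 genes were higher and 3 lower, against 20.8 and 19.2% of all genes. DKK1 (0.86 ± 0.08, adjusted p = 0.000101), RNF43 (0.61 ± 0.06), ZNRF3 (0.35 ± 0.07) and APCDD1 (0.20 ± 0.05, adjusted p = 0.0123) were higher. As deposited RNF43 (0.39, adjusted p = 0.0527), ZNRF3 (0.14, adjusted p = 0.546) and APCDD1 (-0.02, adjusted p = 0.954) were not called, APCDD1 having turned sign. APCDD1 was not called without the second 48 h library either (adjusted p = 0.096), nor without the mean-variance trend (adjusted p = 0.0542). DKK4 (-1.03 ± 0.08, adjusted p = 3.65e-05), NKD2 (-0.52 ± 0.07) and NOTUM (-0.43 ± 0.04) were lower. AXIN2 stood at -0.00 ± 0.05 (adjusted p = 0.949), NKD1 at 0.09 ± 0.04 (adjusted p = 0.134) and SP5 at -0.16 ± 0.07 (adjusted p = 0.0795). NKD1 was at -0.13 as deposited (adjusted p = 0.595), and it was called higher after quantile normalization (0.15, adjusted p = 0.0291) and at equal library sums (0.13, adjusted p = 0.0441). Without the second 72 h library SP5 was called (-0.22, adjusted p = 0.0469). Without the second 48 h library AXIN2 was at 0.04.

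**Figure D4:**
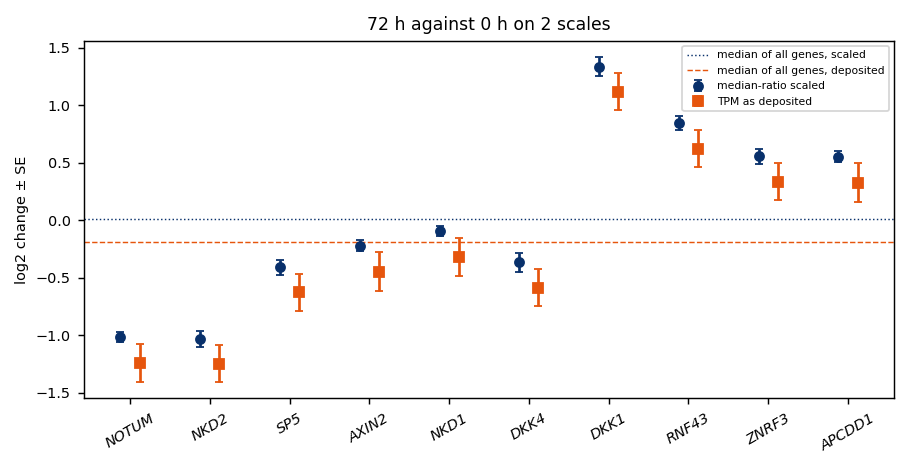
Change of each feedback gene after 72 h against 0 h (vertical axis, log2 scale, ± SE) after median-ratio scaling (circles) and on the TPM as deposited (squares), with lines at the median of all genes on each scale. All 10 genes keep their sign on both scales, and the deposited values sit lower throughout, as does the median of all genes at -0.19.

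In 4 of the 10 genes an exon overlaps that of another gene in the GENCODE v29 annotation, and reads there may have been divided between them by the authors' estimation. AXIN2 overlaps the protein-coding model AC004805.1, and RNF43 overlaps SUPT4H1, AC004687.2 and the antisense TSPOAP1-AS1. DKK1 overlaps PRKG1-AS1 and NKD1 overlaps AC007608.1, both antisense. SUPT4H1, an elongation factor gene, had changes of 0.28 ± 0.05 after 48 h (adjusted p = 0.00498) and 0.12 ± 0.05 after 72 h (adjusted p = 0.0724), where RNF43 had 0.24 and 0.85. Whether strand was used is not stated by any label or header.

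Other Wnt target genes were split in direction as well. Of 42 that were kept, TCF7L2 among them, 12 rose and 16 fell after 72 h, against 26.2 and 25.7% of all genes, with a median change of -0.17. The share that rose after 72 h was thus near that of all genes, while the share that fell was above it. At 48 h 11 rose and 8 fell, against 12.1 and 11.3% of all genes, both above those shares. No test of the list as a set was run. After 24 h 0 rose and 1 fell, against 0.647 and 0.437%, with 12 at an unadjusted p under 0.05 in limma. No share of all genes at that unadjusted cutoff is given for comparison. CD44, a hyaluronan receptor, went from 11.7 ± 0.548 to 129 ± 25.1 scaled TPM after 72 h (3.33 ± 0.13, adjusted p = 1.53e-07). The growth factor gene FGF20 rose by 1.89 ± 0.08, and the transcription factor genes MYB and SOX4 rose by 1.49 ± 0.06 and 1.08 ± 0.05. These genes are named for the smallest p of the list, and more of the list fell than rose. As deposited 10 of the 42 were higher and 19 lower after 72 h, against 10.5 and 31.2% of all genes.

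A list of Wnt inhibitors outside the 10 held mostly low genes. It also held 1 gene that goes against its name, the kinase gene TNIK, which encodes a TCF-binding activator of Wnt target genes and rose by 0.77 ± 0.06. Of 35 listed 15 were kept, of which 6 rose and 4 fell after 72 h (median 0.07), against 26.2 and 25.7% of all genes. Without TNIK, left out after its value was seen, 5 of 14 rose and 4 fell (median 0.06). As deposited 4 of the 15 rose and 6 fell, against 10.5 and 31.2% of all genes. CXXC5, a Dishevelled-binding inhibitor, fell by 0.68 ± 0.05. The secreted antagonist gene SOSTDC1 rose from 1.68 ± 0.116 to 4.15 ± 0.0373 scaled TPM (0.94 ± 0.11) and SHISA2, which encodes a protein that retains Frizzled in the cell, from 0.821 ± 0.129 to 2.41 ± 0.114 (0.91 ± 0.13). None of the 15 was called after 24 h by limma, 4 having an unadjusted p under 0.05 (1 as deposited). Here too the share of all genes at the unadjusted cutoff is not given.

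In the destruction complex and Dishevelled list 4 of 24 genes rose and 9 fell after 72 h (median -0.09), against 26.2 and 25.7% of all genes. As deposited 1 rose and 10 fell, against 10.5 and 31.2%. AXIN1, which encodes a scaffold related to AXIN2, went from 20.7 ± 0.339 to 12.4 ± 0.158 scaled TPM (-0.69 ± 0.08, adjusted p = 6.57e-05), where AXIN2 changed by -0.22. CSNK1A1, the priming kinase of beta-catenin, fell by 0.75 ± 0.04, APC by 0.67 ± 0.10 and DVL1, a Dishevelled gene, by 0.27 ± 0.05. Among receptors and ligands, the side on which RNF43 and ZNRF3 act, 8 of 21 rose and 3 fell (median 0.12), and 4 and 3 as deposited, against the same shares of all genes. FZD10, a Frizzled gene, rose from 4.32 ± 0.122 to 11.9 ± 0.160 scaled TPM (1.28 ± 0.08). FZD5 rose by 0.64 ± 0.10, and WLS, which carries Wnt ligands to the surface, by 1.28 ± 0.07. LGR6, a receptor for R-spondins, fell by 1.30 ± 0.14.

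Of 15 SP and KLF factors related to SP5, 3 rose and 4 fell after 72 h (median 0.02), near the 26.2 and 25.7% of all genes, and 1 and 4 as deposited, against 10.5 and 31.2%. KLF6 rose by 0.87 ± 0.10, KLF3 by 0.48 ± 0.06 and KLF5, an intestinal proliferation factor, by 0.36 ± 0.05, while KLF13 fell by 0.43 ± 0.06. As deposited KLF3 (adjusted p = 0.181) and KLF5 (adjusted p = 0.526) were not called. Of 16 colorectal epithelial markers 11 rose and 3 fell after 72 h, with a median of 0.48, and 7 and 3 as deposited, against those shares of all genes. Their summed level was 3290 and 3235 scaled TPM at 0 h and 4306 and 4134 after 72 h, with KRT19 up by 0.84 ± 0.04, CLDN4 by 0.89 ± 0.05 and CDH17 by 1.44 ± 0.10, and CLDN7 down by 0.81 ± 0.06.

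The genes whose levels ran most like each feedback gene were found by Pearson r of log2(scaled TPM + 1) over the 8 libraries, among 8918 genes with a mean TPM of 5 or more. The libraries form 4 time groups, so r mostly reflects the order of 4 means and is given as a description. It takes no account of the size of a change. ENTPD8, for example, went from 107 scaled TPM at 0 h to 89.8 after 72 h, where NOTUM went from 345 to 169.8. TM4SF1 went from 7.37 to 33.7, where DKK1 went from 16.1 to 42.0. For NOTUM the closest were ENTPD8 (r = 0.997), TGFBRAP1 (0.996) and FOXK1 (0.995), and for NKD2 they were SH2D3A (0.994), MYBL2 (0.993) and again TGFBRAP1 (0.991). For SP5 they were TNRC18 (0.996), GPS1 and CLCN7 (0.994 each), and for AXIN2 SEMA3B (0.980), TRMT11 (0.978) and KIF18B (0.974). The rising genes had other companions. For DKK1 these were TM4SF1 (0.996), CNTN1 (0.992) and AKAP12 (0.992), for RNF43 PHLDB1 (0.997), TRPS1 (0.996) and KIF13B (0.995), for ZNRF3 TIMP2 (0.996), ENTPD4 (0.994) and OS9 (0.992), and for APCDD1 HSPA2 (0.993), CTSZ and LARP6 (0.992 each). NKD1, with its dip after 24 h, ran closest to the cell-cycle genes CDK6 (0.966) and CCNE1 (0.939) and to NES (0.963), which encodes nestin. CDK6 fell by 0.45 ± 0.05 after 24 h (adjusted p = 0.0116) and its value after 72 h was -0.21 ± 0.05. DKK4 ran closest to NQO1 (0.988), a quinone reductase gene, SAT1 (0.987), which encodes a polyamine acetyltransferase, and OVCA2 (0.981).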

How the data were processed

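The authors deposited 1 table of TPM per gene symbol with 1 column per library, estimated by RSEM according to the submitters' processing notes. Those notes also name Trimmomatic, FastQC, STAR, Picard, SAMtools and the build hg19, without versions, annotation or strand setting (not given in the sources used here). Per the labels' protocols, ribosomal RNA was removed from total RNA. Since TPM holds no read depth, the depth is unknown and the counting error of a level could not be computed.

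The scaling factor of a library was the median over genes of its ratio to the geometric mean of all 8. A gene was kept if 2 or more libraries had a TPM of at least 1. limma (version 3.58.1, R 4.3.3) was fitted to log2(scaled TPM + 1) of all 8 libraries with a mean-variance trend, 4 residual and 5.41 prior degrees of freedom, two-sided. A fold change on this scale understates that of low genes. Unscaled TPM served as an alternative because its fit gave infinite prior degrees of freedom (median SE 0.162 against 0.0912) and carried the low second 72 h library into every gene. Other alternatives were quantile normalization, equal library sums, a pseudocount of 0.1 or 5, keeping all genes or only those reaching TPM 5, 2 further variance models, a replicate block, fits to 2 groups only and leaving out each library. The script was checked on simulated data.

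All 10 feedback genes are named in every comparison. From each pathway list up to 4 genes called at 72 h with the smallest p are named, and for likeness the 3 genes of highest r. The genes and lists were chosen with earlier results of these data known. CDK6 was given its values, and SUPT4H1 was set beside RNF43, after values were seen. A further marker of other cell types is not reported here.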

Additional observations from a re-analysis of the deposited data

Results flagged for a closer look

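The change of DKK4 differed in sign between times. Against 0 h it was 0.53 at 24 h and -0.37 at 72 h, both past the threshold, and the test of the difference itself, 72 h against 24 h, gave -0.90 (limma adjusted p = 2.56e-05). Without the second 72 h library the 72 h value of DKK4 was -0.23 (adjusted p = 0.0163). The 24 h value was not called on the TPM as deposited (limma adjusted p = 0.35), without a filter (0.0997) or without the mean-variance trend (0.102). Its call was lost too when any 0 h, 24 h or 48 h library was left out, with the value at 0.48 to 0.58 over all libraries left out. As deposited the difference between 72 and 24 h was called (-1.02, adjusted p = 6.58e-09).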

How the results depend on the processing

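Over the 10 genes and 19 alternatives, 187 of 190 values for 72 h against 0 h and 186 of 190 for 72 against 24 h kept their sign and their side of the threshold, against 162 at 48 h and 158 at 24 h. On the TPM as deposited limma called 0 higher and 0 lower at 24 h (5 at an unadjusted p under 0.05), 2 and 2 at 48 h, and 2 higher at 72 h. Without a filter 0 higher and 0 lower were called at 24 h, against 11 higher and 7 lower of all 17894 genes. Without the mean-variance trend 0 and 0 were called at 24 h too, against 15 and 5 of 11894. In each, 5 feedback genes had an unadjusted p under 0.05 at 24 h. The share of all genes at that unadjusted cutoff is not given, so these counts do not speak to the feedback genes as a set. Without the trend 3 feedback genes were called lower at 48 h, against 1192 of all 11894 genes. Leaving out 1 library changed calls of feedback genes at 24 and 48 h and none at 72 h against 0 h. For 72 against 24 h only that of NKD1 was lost. Among all genes the number called also changed most, in proportion, at 24 and 48 h. No value was called after it had turned sign, but that of APCDD1 for 72 against 48 h had been called before. At 24 h RNF43 was -0.0784 as deposited, -0.0304 at equal sums, and -0.0162 to 0.0514 with 1 library left out. With 1 library left out AXIN2 was -0.0464 to 0.00668 and SP5 -0.114 to 0.00261. For 72 against 48 h, as deposited NKD1 was -0.127, against 0.0877 after scaling, and APCDD1 -0.0172, against 0.199. NKD1 was called at 0.151 after quantile normalization and 0.129 at equal sums. AXIN2 was 0.0895 after quantile normalization, 0.0370 at equal sums, and -0.0403 to 0.0371 with 1 library left out. With the replicate number as a block, the test called 1 feedback gene higher and 2 lower after 24 h, and 4 and 5 after 48 h and after 72 h alike. For 72 against 24 h it called 5 and 5. These are the counts found without the block. Of all 11894 genes that fit called 58 higher and 33 lower after 24 h, and 1391 and 1294 after 48 h. It called 3103 and 3046 after 72 h, and 2982 and 2888 for 72 against 24 h. Replicates of the same number deviated together at r of -0.0854 to 0.107 across genes, negative for 24 and 72 h and highest for 0 and 24 h. No clear pairing by number was thus seen, but a low r cannot exclude a shared culture or batch. With 2 libraries a group and no read depth, small changes such as those at 24 h may have been missed.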
